A study of Mus musculus with 14 samples.

Results

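Kinesins are motor proteins that bind microtubules and use ATP. The array carried 27 mouse kinesin genes, taken as every gene whose platform symbol is Kif or Kifc followed by a number, and measured them with 47 probes. They stand among 16593 named genes. The pattern matched 29 genes, and 2 of these were left out by the rule. Of the members, 15 had 1 probe and 12 had several. The rule used names alone, but it was chosen with earlier results of these data known.

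Total RNA came from mouse germinal vesicle (GV) oocytes, full-grown oocytes arrested in the first meiotic prophase, in 14 samples on Illumina bead arrays. At the Rosa26 locus all groups carried lox-stop-lox-myc-gfp-human Ago2, a tagged human gene behind a stop sequence. Zp3-Cre, a recombinase driven by an oocyte promoter, cuts that sequence out, so that Cre-positive oocytes can make the tagged human Ago2. The set without mimic held 4 Cre-negative and 4 Cre-positive samples. The set with mimic held 3 Cre-negative and 3 Cre-positive samples whose oocytes were injected with 2 µM miR-15a mimic, and the labels do not say what the other set was injected with. Per the labels, mice had been primed with 5 units of PMSG for 48 h, and oocytes were kept overnight in 2 µM milrinone, which holds them in prophase. The labels give neither the age and strain of the mice nor the number of oocytes per sample. Nothing in the labels says that replicates came from separate mice, so the p-values measure the spread between these samples, which may be technical. Cre itself and the transgene it switches on cannot be told apart, since no group carried Cre alone. In pooled oocyte RNA, fewer oocytes with a transcript and less of it per oocyte cannot be told apart either.

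Most kinesins walk toward microtubule plus ends, carrying vesicles, organelles or chromosomes. The kinesin-14 family moves toward minus ends, and the kinesin-13 family does not walk but removes tubulin from microtubule ends. Several kinesins assemble the spindle or move chromosomes in meiosis and mitosis. A mouse GV oocyte has not yet built its spindle, stores maternal mRNA for later use, and assembles its meiotic spindle without centrioles.

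The injected mimic copies miR-15a, and its mature strand is shown because seed pairing is how a microRNA recognises its targets. The sequence is from RefSeq (GRCm38.p6, chr14:61632075-61632096, minus strand), written 5′ to 3′, with the seed (bases 2 to 8) in capitals. The labels do not name the arm of the mimic, and the 5p arm is printed.
mmu-miR-15a-5p: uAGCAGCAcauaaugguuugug
Target sites in the kinesin transcripts were not searched, because transcript sequences were not used here.

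The 250 bases before the transcription start, as the RefSeq promoter table places it, are printed for Kif24, Kif15 and Kif11, the members named as markers of the kinesin genes. They are RefSeq sequences of GRCm38.p6, each on its gene's own strand: Kif24 at chr4:41464849-41465098 (minus), Kif15 at chr9:122950831-122951080 (plus) and Kif11 at chr19:37376132-37376381 (plus). Capitals mark 2 motifs known from promoters of cell-cycle genes, found on either strand: the CHR in its forms TTTGAA and TTCGAA, and CCAAT, which NF-Y binds. On the opposite strand TTTGAA reads TTCAAA and CCAAT reads ATTGG, and none of the marked motifs overlap.
Kif24: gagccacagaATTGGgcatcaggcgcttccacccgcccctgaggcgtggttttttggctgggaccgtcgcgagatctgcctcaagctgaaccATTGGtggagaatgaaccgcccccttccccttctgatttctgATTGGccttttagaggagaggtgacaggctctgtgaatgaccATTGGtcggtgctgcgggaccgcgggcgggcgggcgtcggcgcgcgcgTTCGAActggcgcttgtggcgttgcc
Kif15: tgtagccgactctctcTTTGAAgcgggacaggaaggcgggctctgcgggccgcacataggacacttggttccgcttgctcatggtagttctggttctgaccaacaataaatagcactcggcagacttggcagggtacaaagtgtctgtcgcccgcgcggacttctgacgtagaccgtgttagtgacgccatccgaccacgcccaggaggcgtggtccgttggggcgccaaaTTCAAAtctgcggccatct
Kif11: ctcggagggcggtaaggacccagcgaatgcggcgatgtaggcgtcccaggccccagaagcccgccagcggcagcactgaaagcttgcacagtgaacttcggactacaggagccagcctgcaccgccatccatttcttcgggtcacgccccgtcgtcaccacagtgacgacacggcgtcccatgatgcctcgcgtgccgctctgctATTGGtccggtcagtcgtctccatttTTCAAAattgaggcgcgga
Kif24 held 4 CCAAT and 1 TTCGAA, Kif15 held 2 TTTGAA, and Kif11 held 1 TTTGAA and 1 CCAAT. In the promoter table, 22 of the 27 kinesin genes were matched. These 22 genes had 26 promoters in the table. TTTGAA was in 6 of the 26 (23.1%), against 16% of all 32851 promoters. TTCGAA was in 1 of the 26, that of Kif24 (3.85%), against 1.34% of all promoters. CCAAT was in 10 of the 26 (38.5%), against 33.8% of all promoters. A match describes the letters and is not a binding site.

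Each array's values are background-corrected signals on the log2 scale, normalized inside the set to which the array belongs. Levels are therefore compared only between arrays of 1 set and for 1 probe, never between kinesins or between sets. A probe counted as detected on an array when its detection p, which sets it against the array's negative controls, was under 0.05. Mean raw intensity per array ran from 118 to 151 without mimic and from 339 to 380 with mimic. Between 11652 and 13619 probes per array were detected without mimic, and between 13129 and 13715 with mimic. Cre-positive replicate 1 of the set without mimic stood apart, with 11652 detected probes against at least 13294 on the other arrays of the set and the lowest mean raw intensity. Without it, 0 kinesins were called, as with it. The probe annotated to Ago2 checked the Cre label: it stood at 4.89 in Cre-negative and 6.86 in Cre-positive samples without mimic, and at 6.08 and 8.43 with mimic. Of 13 oocyte markers on the array, 13 were detected in both sets, among them Zp3 and Gdf9. Of 15 granulosa and cumulus cell markers, 5 were detected without mimic and 7 with mimic. Their mean log2 signal ran from 5.22 to 5.32 in Cre-negative and from 5.27 to 5.39 in Cre-positive samples with mimic.

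Most kinesin genes gave a detected signal in these oocytes. Without mimic, 17 of 27 (63%) had a brightest probe detected on at least 4 arrays, against 52.6% of all named genes. With mimic, 18 of 27 (66.7%) were detected on at least 3 arrays, against 54.4% of all named genes. Genes that met this rule were tested, and the same 17 were tested in both sets, with Kif3c added with mimic. On every array of the set, 15 of the 17 and 16 of the 18 were detected.

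The detected members covered most kinds of kinesin work. Among spindle and chromosome motors these were Kif11, Kif15, Kif18a, Kif18b, Kif22, Kif2a and Kif2c. Kif24, a kinesin-13 of centrioles, was detected on all 14 arrays. Among transport motors, Kif5c, Kif1b, Kif3a and Kif3b passed, as did Kif17, Kif21a, Kif27, Kif9 and Kifc3. The 9 members below the rule in both sets were Kif12, Kif13a, Kif1a, Kif1c, Kif20a, Kif2b, Kif5a, Kif5b and Kifc2. Kif5a and Kif1a are best known from neurons, and Kif12 from epithelia of kidney and liver. Kif20a works in cytokinesis. Whether detection followed such roles was not tested. Kif17, which carries vesicles in mouse neurons, and Kif9, a motor of sperm flagella, were detected. Without mimic, the 10 untested members were detected on at most 3 of 8 arrays, and 5 of them on none. With mimic, the 9 untested members were detected on at most 2 of 6 arrays, and 8 of them on none. A signal missed on an array does not show that the transcript is absent. Several kinesins are abundant in ciliated epithelium, and of 5 markers of such cells 2 were detected without and 1 with mimic.

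**Figure D1:**
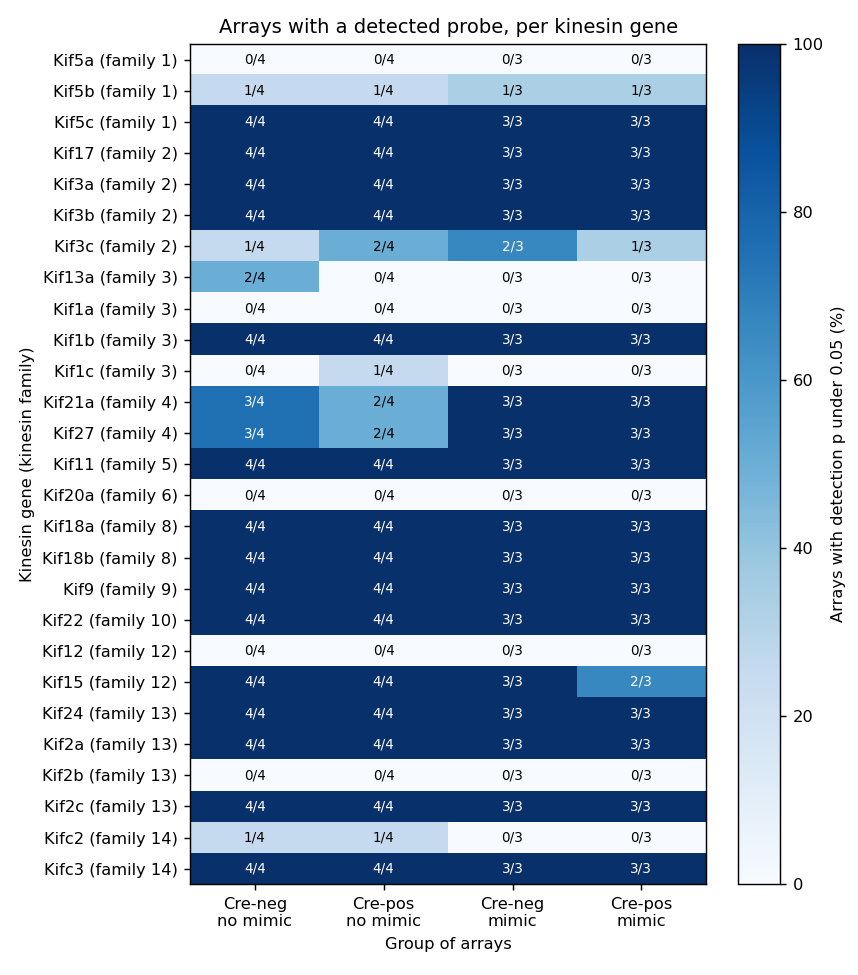
Share of arrays in each group (columns) on which the brightest probe of each kinesin gene (rows, ordered by family) was detected at a detection p under 0.05, with the number of arrays printed in each cell. Most rows are either full in all 4 groups or nearly empty in all 4, and 15 of the 17 members tested without mimic were detected on all 8 arrays.

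The first question was whether Cre-positive oocytes differed from Cre-negative ones in kinesin transcripts without the mimic. No kinesin passed the test: 0 of 17 reached an adjusted p of 0.05, against 0.0419% of the 9546 features tested (4 features), in limma with Benjamini-Hochberg adjustment. At an unadjusted p under 0.05 there was 1 kinesin, Kif24, against 4.67% of all features (2.79% lower). The groups failed to overlap for 0 of 17 members, against 2.91% of all features. The median log2 difference, Cre-positive minus Cre-negative, was -0.027 over the 17 and -0.0061 over all features, and 10 of 17 members lay below 0, against 52.2% of all features. The 95% confidence interval of all 17 lay within 2-fold in either direction, and that of 15 within 1.5-fold.

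With the mimic present, Kif24 was lower in Cre-positive oocytes, and it was the 1 kinesin of 18 that passed, against 0.132% of the 9883 features tested (13 features, of which 11, or 0.111%, were lower). At an unadjusted p under 0.05 there were 3 kinesins, Kif24 and Kif15 lower and Kif17 higher, against 7.5% of all features (3.94% lower and 3.56% higher). The same 3 were those whose groups did not overlap, against 12.6% of all features (6.25% lower and 6.36% higher). The median difference was 0.016 over the 18 members and 0.0019 over all features, and 8 of the 18 lay below 0, against 49.5% of all features. The interval of 15 of the 18 lay within 2-fold of signal in either direction, and that of 8 within 1.5-fold, with the same limit for dim probes. These counts depend on the size of a difference as well as on its precision. The SE of the tested members ran from 0.0973 to 0.173 without and from 0.0828 to 0.285 with mimic.

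**Figure D2:**
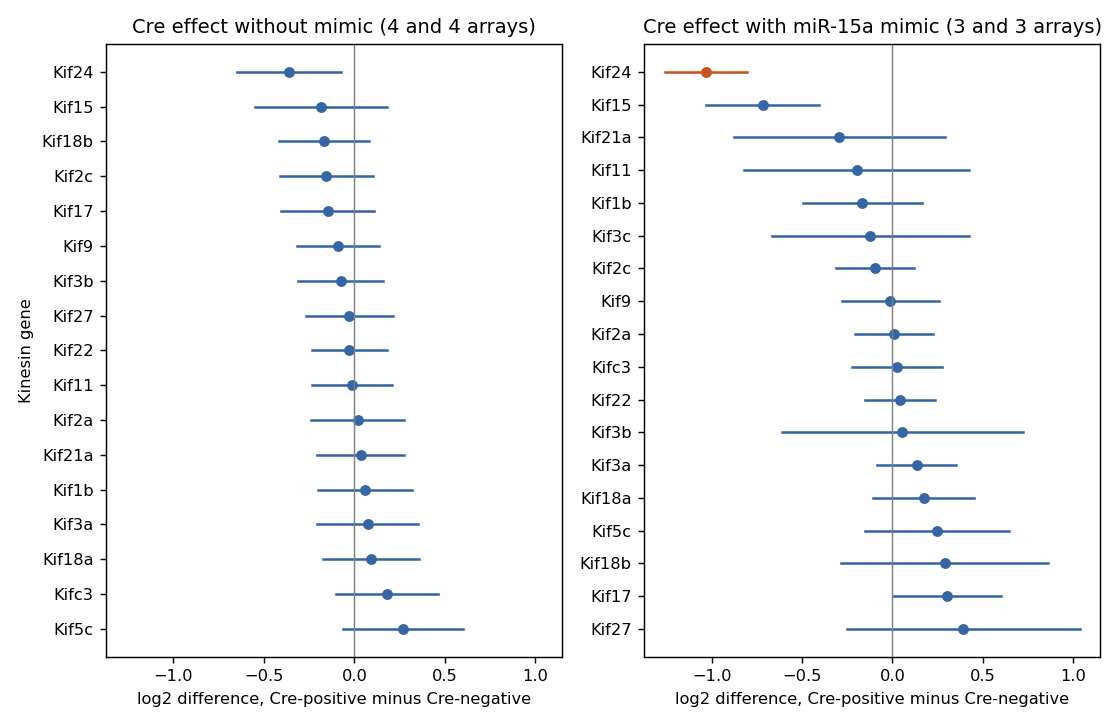
Log2 difference, Cre-positive minus Cre-negative, of every tested kinesin gene without mimic (left, 17 genes) and with miR-15a mimic (right, 18 genes); points are estimates, lines are 95% confidence intervals from limma, and red marks an adjusted p under 0.05. Kif24 is lowest in both panels, at -0.36 and -1.03, and is the only red point.

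Kif24 belongs to the kinesin-13 family. In human cells it sits at centrioles, shortens centriolar microtubules and holds back the assembly of the primary cilium. With mimic, its log2 signal was 8.50, 8.59 and 8.39 in the Cre-negative samples and 7.48, 7.37 and 7.54 in the Cre-positive ones. All 3 Cre-positive arrays lay below all 3 Cre-negative arrays, and both groups were tight (8.50 ± 0.104 and 7.46 ± 0.0836, SD, n = 3 each). The difference was -1.03 ± 0.0965 (SE), a 2.04-fold lower signal, with a 95% interval from -1.26 to -0.81 and an adjusted p of 0.0103 in limma. The exact two-sided permutation p was 0.1, the smallest that 3 against 3 arrays allow. The raw intensity, before any correction, ran from 471 to 514 in Cre-negative and from 281 to 291 in Cre-positive samples.

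The Kif24 call was lost when some single arrays were left out and with a replicate block, while its size held. Leaving out Cre-negative replicate 1 or 2, or Cre-positive replicate 1 or 2, raised the adjusted p to 0.106, 0.092, 0.0754 and 0.0752, while the difference stayed between -1.09 and -0.98 over all 6 omissions. Without background correction the difference was -0.70.

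Without mimic, Kif24 stood at 6.34, 6.35, 6.09 and 6.21 in the Cre-negative samples and at 5.45, 5.89, 6.04 and 6.14 in the Cre-positive ones. Cre-positive replicate 1 was the lowest, and the groups overlapped. The difference was -0.36 ± 0.136 (SE), with an interval from -0.65 to -0.07, an unadjusted p of 0.0168 and an adjusted p of 0.948. The exact permutation p was 0.0571. Without Cre-positive replicate 1, the array with the fewest detected probes, the difference was -0.22 (adjusted p 0.978 in limma), and on the authors' deposited normalized values it was -0.18. Among the probes that represent the kinesin genes, that of Kif24 had the smallest p in both sets. Whether its Cre effect differed between the sets was tested in a fit of all 14 arrays: the effect with mimic minus that without was -0.67 ± 0.192 (SE), with an unadjusted p of 0.00289 and an adjusted p of 0.876. Over this comparison 0 of 15 kinesins and 0% of 8769 features passed in limma, and 2 kinesins, Kif24 and Kif17, reached an unadjusted p under 0.05, against 4.52% of all features.

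In RefSeq order (GRCm38.p6), the 5 nearest measured genes on each side of Kif24, 10 in all, held 0 calls in either set. Over all features 0.0419% were called without and 0.132% with mimic, so 10 genes would hold about 0 calls anyway. Without mimic, 8 of the 10 lay below 0, against 52.2% of all features, with differences from -0.24 to 0.08. With mimic, 3 of the 10 lay below 0, against 49.5% of all features. The differences of the 10 ran from -0.26 to 0.37 with mimic (smallest adjusted p 0.733 in limma). Ubap1 and Nudt2 are the direct measured neighbours of Kif24. The other kinesin-13 genes did not pass in either set. Kif2c (MCAK) corrects wrong attachments of microtubules to kinetochores, and Kif2a removes tubulin at spindle poles. With mimic, Kif2c read 10.07, 9.96 and 10.05 in Cre-negative and 9.84, 10.04 and 9.91 in Cre-positive samples, a difference of -0.10 ± 0.0925 (SE). Its arrays overlapped. Without mimic, Kif2c read 7.98, 7.74, 7.79 and 8.07 against 7.56, 8.0, 7.82 and 7.58, a difference of -0.16 ± 0.122 (SE). Kif2a differed by 0.02 without and 0.01 with mimic, with intervals from -0.24 to 0.28 and from -0.21 to 0.22. Its other 2 probes ran up to 0.19 without and 0.47 with mimic, and none passed. Kif2b was detected on no array.

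Kif15 is the kinesin-12 that holds spindle poles apart beside Kif11 and can take over when Kif11 is blocked. It had 3 probes. The brightest one with mimic, ILMN_1237163, read 5.94, 5.84 and 5.86 in Cre-negative and 5.29, 5.32 and 4.87 in Cre-positive samples. The groups did not overlap, and it was detected on 3 of 3 Cre-negative and 2 of 3 Cre-positive arrays. Its difference was -0.72 ± 0.134 (SE), with an interval from -1.03 to -0.41 and an adjusted p of 0.27 in limma, so Kif15 did not pass. The value moved with the background: it was -0.21 on the authors' deposited normalized values and -1.10 at an offset of 1. With a spread shared by all 4 groups, the same difference had an adjusted p of 0.0106 in limma. That spread also draws on the arrays without mimic, where this probe did not pass the filter. There it was detected on 1 of 4 Cre-negative and 2 of 4 Cre-positive arrays, so this p is given as a description.

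The second Kif15 probe, ILMN_2900557, was dimmer over the set and so did not represent the gene with mimic. It read 6.03, 5.88 and 6.09 in Cre-negative samples and 4.49, 4.86 and 4.69 in Cre-positive ones. The Cre-negative samples gave a detected signal on 3 of 3 arrays and the Cre-positive ones on 0 of 3, so its lower level is known only as a bound. On the background-corrected scale used here the signal was at least 1.95-fold lower. For this bound each Cre-positive array was taken at the lowest signal among its detected probes. The bound holds for this processing only. The raw intensity, before any correction, ran from 178 to 193 in Cre-negative and from 125 to 146 in Cre-positive samples. The probe passed the detection filter only through the Cre-negative arrays, which favours a lower Cre-positive value, so its adjusted p of 0.00927 in limma with every probe tested is given as a description and adds no call. The third probe, ILMN_1242973, was detected on no array of either set.

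Without mimic, ILMN_2900557 was the brightest Kif15 probe. It read 4.79, 4.70, 4.66 and 5.57 in Cre-negative and 4.80, 4.56, 5.04 and 4.59 in Cre-positive samples. Cre-negative replicate 4 stood above all other arrays, and the groups overlapped. The difference was -0.18 ± 0.173 (SE), with an adjusted p of 0.952 in limma, and turned to 0.03 without Cre-negative replicate 4. Kif15 did not enter the comparison of the Cre effects between the sets, since different probes represent it there. The 10 nearest measured genes of Kif15 held 0 calls in either set, about as many as the shares over all features give for 10 genes. With mimic 7 of the 10 lay below 0, against 49.5% of all features.

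**Figure D3:**
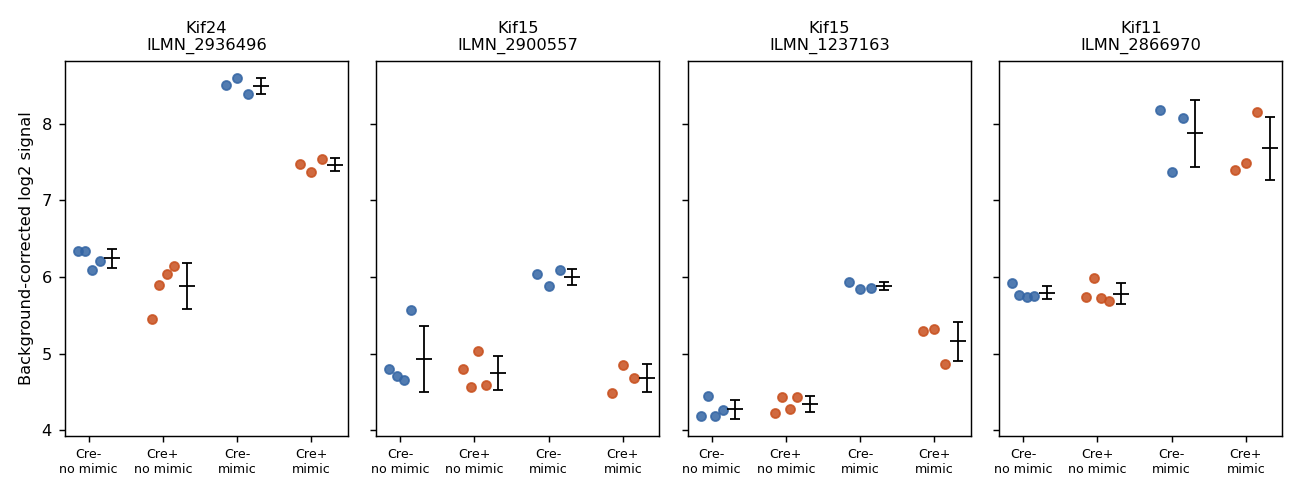
Background-corrected log2 signal on each array (points, blue for Cre-negative and red for Cre-positive) for the Kif24 probe, the 2 detected Kif15 probes and the Kif11 probe; bars beside the points give the mean and SD of the 4 or 3 arrays of a group. The sets without and with mimic were normalized apart and different probes have different brightness, so only groups of 1 set within 1 panel compare. With mimic the groups separate for Kif24 and for both Kif15 probes and overlap for Kif11. Over all features tested with mimic, the groups separate for 12.6%. With mimic the Kif15 probe ILMN_2900557 passed the filter only through the Cre-negative arrays, so its separation is a description.

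Kif11 (Eg5), the kinesin-5 that slides antiparallel microtubules apart to make a spindle bipolar, did not pass in either set. Without mimic it read 5.92, 5.77, 5.74 and 5.75 in Cre-negative and 5.73, 5.99, 5.73 and 5.69 in Cre-positive samples. The groups overlapped, with a difference of -0.01 ± 0.104 (SE) and an interval from -0.23 to 0.21. With mimic it read 8.18, 7.37 and 8.08 against 7.4, 7.49 and 8.15. Each group held both high and low arrays. The difference was -0.20 ± 0.266 (SE), and its interval from -0.82 to 0.42 still allowed a change of the size seen at Kif15.

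No other chromosome motor passed the test. Kif18a dampens the movements of chromosomes at the metaphase plate. It read 6.68, 6.70, 6.61 and 7.04 in Cre-negative and 6.58, 7.02, 6.80 and 7.0 in Cre-positive samples without mimic. The values with mimic were 8.68, 8.48 and 8.52 against 8.64, 8.95 and 8.61. Groups overlapped in both sets, with differences of 0.09 ± 0.126 and 0.17 ± 0.12 (SE), and the first became -0.0034 under median scaling. The other Kif18a probe, ILMN_1212799, differed by -0.09 without and 0.18 with mimic, so the probes did not share a sign without mimic. With mimic its Cre-positive arrays all lay above the Cre-negative ones, as for 6.36% of all features. Its adjusted p there was 0.797 in limma with every probe tested. Kif18b shortens astral microtubules together with Kif2c. It read 5.92, 5.48, 5.58 and 5.52 against 5.52, 5.30, 5.61 and 5.39 without mimic, a difference of -0.17 ± 0.118 (SE). On another probe, the brightest one with mimic, it read 6.37, 6.29 and 7.01 against 7.17, 6.94 and 6.42, a difference of 0.29 ± 0.246 (SE). Groups overlapped in both sets, and the sign differed between the sets. Kif22 (Kid), which pushes chromosome arms toward the plate, had the smallest SE of all tested members in both sets. Its intervals were from -0.23 to 0.18 without and from -0.15 to 0.23 with mimic, around differences of -0.03 and 0.04.

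Kif17 is a homodimeric kinesin-2 that carries NMDA receptor vesicles in mouse neurons. With mimic it read 6.52, 6.88 and 6.84 in Cre-negative and 7.20, 7.0 and 6.94 in Cre-positive samples. All 3 Cre-positive arrays lay above the others by a small margin, which was so for 1 of 18 members and 6.36% of all features. The difference was 0.30 ± 0.129 (SE), with an adjusted p of 0.663 in limma and an exact permutation p of 0.1, and it was 0.19 without Cre-negative replicate 1. Without mimic it read 5.24, 5.26, 5.28 and 5.24 against 5.47, 4.87, 5.13 and 4.96. There the Cre-negative arrays lay inside the range of the Cre-positive ones, and the difference was -0.15 ± 0.122 (SE). The Cre effect with mimic minus that without was 0.45 ± 0.186 (SE), with an unadjusted p of 0.027 and an adjusted p of 1.0.

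Kif3a and Kif3b form the other kinesin-2 motor, which carries cargo along cilia. Kif3a read 5.68, 5.99, 5.59 and 5.95 against 5.87, 5.96, 5.55 and 6.12 without mimic. The values with mimic were 8.07, 8.28 and 8.17 against 8.24, 8.33 and 8.35. Groups overlapped in both sets, with differences of 0.07 ± 0.132 and 0.13 ± 0.0928 (SE), the first of which became -0.0097 under median scaling. The other Kif3a probe, ILMN_2621148, differed by -0.15 without and -0.07 with mimic, so the probes of this gene did not share a sign. Kif3b differed by -0.08 and 0.05, and Kif3c, tested with mimic alone, by -0.12. The interval of Kif3b with mimic, from -0.61 to 0.72, was the widest of all tested members.

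Kif5c, the 1 kinesin-1 heavy chain of 3 that was detected, moves vesicles and mitochondria. It read 7.79, 7.98, 8.07 and 7.99 in Cre-negative and 8.30, 8.10, 7.77 and 8.73 in Cre-positive samples without mimic. The set with mimic gave 9.62, 9.97 and 9.37 against 10.04, 9.67 and 9.98. It was higher on average in both sets, by 0.27 ± 0.156 and 0.24 ± 0.17 (SE), but the groups overlapped in each, and the adjusted p was 0.948 and 0.8 in limma. The differences were 0.10 without Cre-positive replicate 4 in the first set and 0.10 without Cre-negative replicate 3 in the second. Kif5b was detected on 1 of 4, 1 of 4, 1 of 3 and 1 of 3 arrays of the 4 groups.

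Kif1b, a kinesin-3 that carries mitochondria and synaptic vesicle precursors, had 6 probes. Its brightest read 6.86, 6.72, 6.80 and 6.35 against 6.85, 6.88, 6.63 and 6.59 without mimic, and the groups overlapped. With mimic it read 8.89, 8.80 and 8.42 against 8.67, 8.48 and 8.46, again with overlap. The differences were 0.06 ± 0.123 and -0.17 ± 0.141 (SE), and the first became -0.04 under median scaling. Over all 6 probes they ran from -0.20 to 0.22 without and from -0.30 to 0.14 with mimic, so the probes of this gene did not share a sign in either set.

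Kif21a restrains microtubule growth at the cell cortex, and Kif27 is needed to build motile cilia. Without mimic each was detected on 3 of 4 Cre-negative and 2 of 4 Cre-positive arrays, and every value lay between 4.23 and 4.65. With mimic Kif21a read 6.44, 5.65 and 5.77 against 5.68, 5.28 and 6.01, a difference of -0.29 ± 0.25 (SE). Kif27 read 5.37, 5.15 and 5.50 against 6.32, 5.12 and 5.76, a difference of 0.39 ± 0.276 (SE). The groups overlapped for both, and the highest Kif27 value came from 1 array. Kifc3, a minus-end motor of the kinesin-14 family, read 5.03, 5.11, 4.86 and 5.26 against 5.57, 5.17, 5.31 and 4.93 without mimic, with a difference of 0.18 ± 0.133 (SE). The groups overlapped. With mimic it read 5.85, 6.09 and 6.05 against 5.96, 5.95 and 6.16, with a difference of 0.02 ± 0.107 (SE), which became -0.02 under median scaling. Kif9, a motor of sperm flagella, differed by -0.09 and -0.01.

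Leaving Kif24 and Kif15 aside, the differences of the other members ran from -0.17 to 0.27 without mimic (15 genes, adjusted p 0.948 to 0.996) and from -0.29 to 0.39 with mimic (16 genes, adjusted p 0.663 to 0.988), in limma. Of the 17 members tested in both sets, 15 of them on the same probe, 10 had the same sign in both. The share over all features was not computed.

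**Figure D4:**
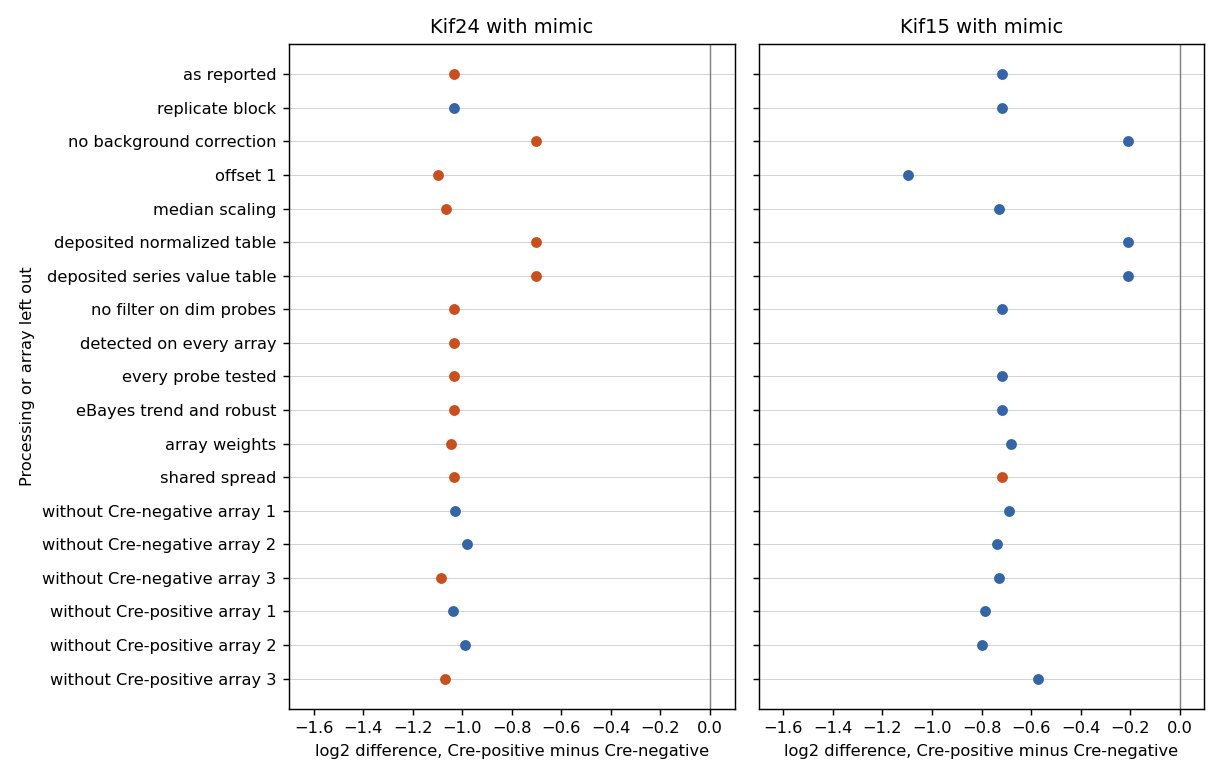
Log2 difference with mimic, Cre-positive minus Cre-negative, of Kif24 (left) and Kif15 on its brightest probe (right) under each processing choice and with each array left out; red marks an adjusted p under 0.05. Every point lies below 0; Kif24 runs from -1.10 to -0.70 and Kif15 from -1.10 to -0.21. Kif15 has no point where detection on every array was required, since it was missed on 1 array.

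Counts for the genes with which kinesins work are read against 0.0419% of all features called without and 0.132% with mimic, shares at which lists of this size hold about 0 calls. Of 14 genes of light chains and cargo adaptors, 11 were tested in each set and 0 passed. Their median difference was -0.05 without and -0.0022 with mimic. The 2 members with the smallest p in each direction were, without mimic, Fez2 (-0.18), Klc4 (-0.18), Rhot1 (0.09) and Trak1 (0.03). With mimic they were Trak2 (-0.24), Fez2 (-0.21), Kifbp (0.20) and Klc3 (0.13). Klc4 and Klc3 are kinesin-1 light chains, and Trak1, Trak2 and Rhot1 link kinesin-1 to mitochondria. Fez2 is a kinesin-1 adaptor, and Kifbp binds kinesin motor domains and keeps them off microtubules.

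Dynein, the main motor toward minus ends, and its activator dynactin had 22 genes on the array. In each set 20 were tested and 0 passed, with medians of -0.0085 and -0.027. Without mimic the 2 smallest p values in each direction belonged to the regulator Ndel1 (-0.26), the light chain Dynll1 (-0.18), the light intermediate chain Dync1li2 (0.24) and the heavy chain Dync1h1 (0.22). With mimic they belonged to the intermediate chain Dync1i2 (-0.26), Dync1h1 (-0.39), the light chain Dynlt1b (0.20) and the dynactin subunit Dctn2 (0.10). Dync1h1 thus had opposite signs in the sets and passed in neither.

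Of 18 tubulin genes, 17 were tested without and 16 with mimic, and 0 passed in either set, with medians of -0.0037 and 0.05. The 2 smallest p values in each direction belonged, without mimic, to Tuba1b (-0.31), Tubb5 (-0.13), Tubb6 (0.17) and Tubb4a (0.12), and with mimic to Tubb2a (0.40), Tubb2b (0.12), Tuba1b (-0.08) and Tuba4a (-0.10).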

How the data were processed

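Oocyte RNA of the 14 samples was amplified and labelled with biotin for Illumina arrays, per the labels' protocols. Per the file headers, the authors deposited 2 tables for each set: raw values, with the intensity of a probe on an array beside its detection p-value, and normalized log2 values. A test on the files showed that the deposited log2 values are the raw intensity after log2 and quantile normalization, set by set and with no background correction (largest deviation 4.97e-14). The series value table differed from them by at most 5.0e-09, and its column medians are 6.38 without and 7.24 with mimic. What else the authors did is not stated in the labels or headers.

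The comparisons here started from the raw intensity. Background was removed by limma's nec (limma 3.58.1, R 4.3.3), which took negative controls from the detection p-values and added an offset of 16, and log2 values were then quantile normalized inside each set. The offset shrinks the differences of dim probes. Of 25697 probes, 23978 carried 1 symbol in the platform annotation, and the 1719 with several or none stayed unnamed. The filter asked for a detection p under 0.05 on 4 arrays without or 3 with mimic, and a gene was read from its brightest probe past it. The test was limma's moderated fit (lmFit, eBayes; two-sided) with Benjamini-Hochberg adjustment over all features of a set, at 0.05. The difference of the Cre effects used probes that represent their gene in both sets. The mimic itself was not tested, because it coincides with the set and the sets were normalized apart. Exact permutation tests over arrays cannot go below 0.0286 with 4 against 4 or 0.1 with 3 against 3 arrays. The number of arrays limits the precision.

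Array values are given for Kif24, Kif15 and Kif11, for members past the threshold, and for the 5 members with the smallest p in each direction and set. From the other lists, the 2 smallest p per direction and set are named. The members and lists were chosen with earlier results of these data known. Results were recomputed with a replicate block, without background correction, at an offset of 1, after median scaling, from both deposited value tables, with no filter or with detection required on all arrays, with all probes tested, with trend and robust moderation, with array weights, with a shared spread and with each array left out. Detection was recounted at a p of 0.01 and over any probe of the gene. The fit was tested on simulated data. Gene order came from RefSeq (GRCm38.p6). Probe coordinates are not given, since the files name no build. Figures were drawn with Python 3.11.15 and matplotlib 3.10.9.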

Additional observations from a re-analysis of the deposited data

Results flagged for a closer look

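In groups of 4 arrays, a value was picked out when its gap to the nearest other array took more of the group's range than Dixon's critical value allows. This was so for 4 of 26 groups of the members given array by array, where chance alone picks out about 1 in 20. Groups of 3, as in the set with mimic, were not examined. In the set without mimic, Kif11 read 5.92 in Cre-negative replicate 1, against 5.74 to 5.77 in the other arrays of its group. Kif11 also read 5.99 in Cre-positive replicate 2, against 5.69 to 5.73 in the others. Kif15 (ILMN_2900557) read 5.57 in Cre-negative replicate 4, against 4.66 to 4.79 in the others. Kif21a read 4.23 in Cre-negative replicate 4, against 4.47 to 4.52 in the others, all near the limit of detection.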

How the results depend on the processing

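The count of kinesins called without mimic (0) and in the difference of the Cre effects (0) was the same under every alternative. With mimic it was 1. It became 0 with a replicate block, 2 with every probe tested and 2 with a shared spread. With each array left out it ranged from 0 to 1. Both counts of 2 held Kif15 beside Kif24. With every probe tested, Kif15 was counted on a probe that passed the filter through the Cre-negative arrays alone. With a shared spread, it was counted on a probe that did not pass the filter without mimic, where part of that spread was taken. The same-number correlations of the replicates were -0.07 to 0.01 without and 0.04 to 0.21 with mimic. With mimic, the best partner of replicates 1 and 3 in the other group had the same number. So few arrays cannot settle whether the replicate numbers pair them. With the replicate block, Kif24 stayed at -1.03 with an adjusted p of 0.116 in limma, the block called 3 features in all with mimic, and it changed no other kinesin call. Over the other processing choices with all arrays kept, Kif24 with mimic had an adjusted p from 6.57e-05 to 0.0286 in limma. With each array left out, it ran from 0.0324 to 0.106. Counts over all features without mimic were 4, and 2 at an offset of 1 or with no filter, 3 or 4 under the other choices (3 to 5 with each array left out). With mimic they were 13, and 21 with no background correction, median scaling, or the deposited normalized or series values, 26 with trend and robust settings and 33 with a shared spread (2 to 13 with each array left out). For the difference they were 0, and 2 with no background correction or either deposited table, 1 with median scaling and 1 with no filter (0 to 3 with each array left out). Under these choices the sign turned only for differences that had not passed. Without mimic median scaling gave Kif18a -0.0034, Kif1b -0.043 and Kif3a -0.0097, and array weights gave Kif11 0.027. With mimic Kifc3 was -0.020 under median scaling and -0.0027 with array weights. In the difference of the effects Kif5c was 0.062 and 0.027 under the same choices. Leaving out each array, ranges that cross 0 without mimic were -0.080 to 0.028 for Kif11, -0.28 to 0.029 for Kif15, -0.051 to 0.12 for Kif1b, -0.030 to 0.11 for Kif21a, -0.086 to 0.031 for Kif27 and -0.0072 to 0.18 for Kif3a. With mimic the range was -0.048 to 0.068 for Kifc3. In the difference they were -0.029 to 0.14 for Kif18a, -0.0011 to 0.15 for Kif2c, -0.049 to 0.14 for Kif3a and -0.18 to 0.14 for Kif5c. Requiring detection on every array left no value for Kif15 with mimic or for Kif21a and Kif27 without. At a detection p of 0.01, 15 kinesins without and 17 with mimic were detected. The causes of these shifts were not tested. Dim members near the detection limit carry differences that the offset compresses.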

Other observations

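Of the 13 features called with mimic, 3 lie on the chromosome of Kif24 in RefSeq (GRCm38.p6): Kif24 itself, Vamp3 and Tstd2. Kif24 is there by definition, so only Vamp3 and Tstd2 can be set against a share of all genes. Of all tested genes with a RefSeq match, 6.38% lie on that chromosome. This count was made after the values were seen and was not tested. The differences were -1.03 for Kif24, -2.74 for Vamp3, a SNARE protein of endosomal vesicles, and -1.03 for Tstd2.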
